A study of Homo sapiens with 11 samples.

Results

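Human embryonic stem cells of the H1 line held in t2iGo, a medium used to keep the naive state of pluripotency, were compared with H1 cells held as primed cells. The comparison rests on 6 of the 11 RNA sequencing libraries of the series, chosen by line and medium: 3 of t2iGo H1 and 3 of primed H1. Within each culture 1 library carried a control shRNA (short hairpin RNA), 1 the shRNA uCCNE1 and 1 the shRNA pCCNE1, both named for the cyclin E1 gene CCNE1, and all were collected at day 5 of lentiviral infection. The libraries were paired by shRNA. Set beside them for their levels were the other 5 libraries, all of the embryonic line H7: 3 held in the naive medium 5iLA with the same shRNAs at day 5, and untreated H7 cells, 1 library primed and 1 in 5iLA. In what follows 5iLA H7 stands for the 3 shRNA libraries, and the untreated 5iLA library is named as such. Each combination of line, medium and shRNA is 1 library, so p-values measure only how the culture difference varies between the 3 shRNA pairs. Differences between shRNAs that both cultures share are removed by the pairing, while those that depend on the culture are included.

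Primed human cells resemble the epiblast after implantation and depend on FGF signalling through ERK and on activin or NODAL signalling through SMAD proteins. Naive cells resemble the epiblast before implantation and are kept by media that block the kinase MEK, which lies just above ERK. The medium t2iGo is in general made with the cytokine LIF, inhibitors of MEK and of GSK3, and an inhibitor of protein kinase C (PKC). The labels name the medium and do not list its components, nor how long the cells were held in it. Inhibition of GSK3 stabilises β-catenin, which acts with TCF and LEF factors on WNT target genes.

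The values are RPKM (reads per kilobase of transcript per M mapped reads, M standing for mega), scaled between libraries by the median ratio over protein-coding genes, and differences are on the log2(RPKM + 1) scale, t2iGo minus primed. The standard error (SE) given is that of the test (limma) over the 3 pairs. In it the variance of each gene is moderated toward that of genes of like level, as it is in the p-values. By the value of a single read, depth was estimated at 19.1 to 24.3 M reads in primed H1 and at 6.49 to 13.9 M reads in t2iGo H1, so low values are coarser in t2iGo. Histone entries, left out of all tests, held at most 0.0208% of summed RPKM in primed H1 and 0.902% to 2.08% in t2iGo H1. Across 10872 genes with a known transcript length and GC content, the difference had a Pearson r of -0.63 with GC content and of 0.30 with log2 length. These genes share the same 6 libraries, so r is a description only. The same r of -0.63 with GC was found for untreated primed H7 minus primed H1, which were normalised in separate tables and are both primed, while it was -0.35 for 5iLA H7 minus primed H1, -0.31 for t2iGo H1 minus untreated primed H7 and -0.09 for untreated 5iLA H7 minus untreated primed H7. In the sample descriptions the primed H1 libraries are named by their index alone and all other libraries by a number, an index and a lane. The descriptions do not say whether they were prepared or sequenced apart, and in the H1 comparison culture and that difference in naming cannot be told apart. For that reason 2 views are given beside many of the results, though not beside each. The first is the same fit after a smooth trend with GC content and length was removed from each library. The second is whether all 3 t2iGo libraries lay above or below the untreated primed H7 library, scaled to the same reference.

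**Figure D1:**
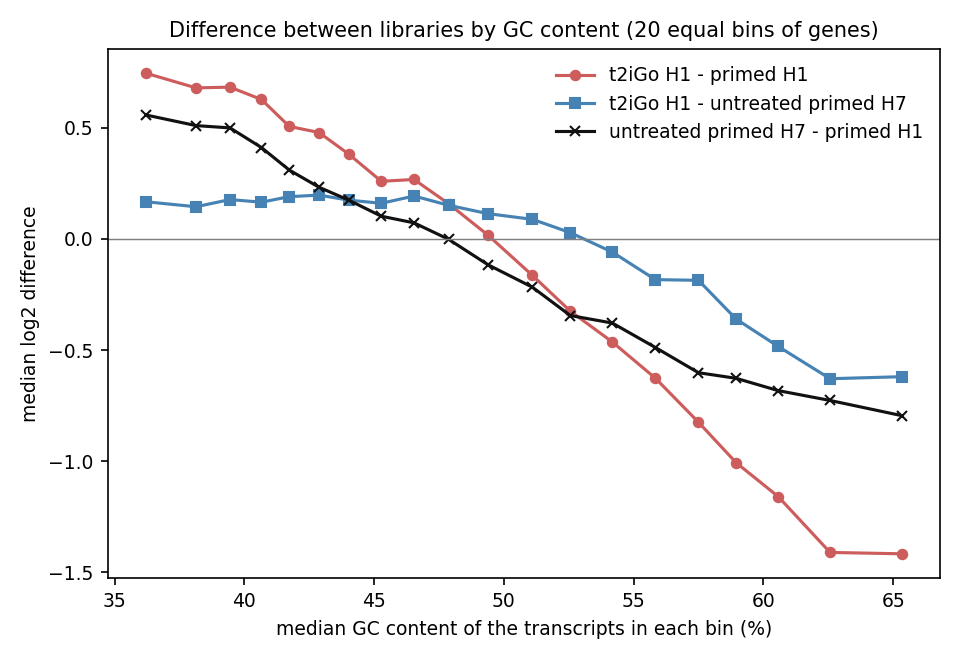
Median log2 difference (y axis) of genes in 20 equal bins of transcript GC content (x axis, %), for t2iGo H1 minus primed H1, t2iGo H1 minus untreated primed H7 and untreated primed H7 minus primed H1. Both lines drawn against primed H1 fall steeply from low to high GC, and the line of t2iGo H1 against primed H7 falls less, with r of -0.63, -0.63 and -0.31 over 10872 genes.

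A majority of genes differed between t2iGo and primed H1 cells. Of 11213 protein-coding genes tested, 8028 (71.6%) passed (limma, Benjamini-Hochberg adjusted p under 0.05), 3755 (33.5%) higher in t2iGo and 4273 (38.1%) lower. Without scaling 1019 genes were higher and 7696 lower, with the median difference of all genes at -0.87 and not -0.05, so the directions given here are relative to that median. In 8003 of the called genes the sign was shared by all 3 shRNA pairs. The difference was at least 1 log2 unit for 1445 higher and 2473 lower genes, and at least 3 log2 units for 40 higher and 72 lower genes. Genes called higher had a median GC content of 42.3% and a median transcript length of 3946 bases, against 57.5% and 2458 bases for genes called lower. With the GC and length trend removed, 5581 of 10872 genes passed (51.3%), 2836 higher (26.1%) and 2745 lower (25.2%). Of the genes called higher 73.9% had all 3 t2iGo libraries above untreated primed H7, where 39.4% of all genes did, and of those called lower 72.5% had all 3 below, where 38.7% of all genes did. The same t2iGo libraries enter the calls and this view. Shares above those of all genes are therefore expected and are no separate support. A total of 1704 genes were higher (15.2%) and 1720 lower (15.3%) in both fits and beyond primed H7 at once, and these shares are the background for counts "in all 3 views" in what follows. For counts in the main fit the background is 33.5% higher and 38.1% lower, and with the trend removed 26.1% and 25.2%.

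The largest rise was that of COL3A1. This gene, which encodes a fibrillar collagen, stood at 0.433, 0.134 and 0.757 RPKM in primed H1 (control, uCCNE1 and pCCNE1 shRNA, the order used throughout) and at 64, 116 and 199.6 RPKM in t2iGo H1. Its difference was 6.34 ± 0.25 log2 units (SE, n = 3 pairs; limma, adjusted p = 1.61e-05), and untreated primed H7 held 0.779 RPKM. The next largest were the apolipoprotein APOA2 (5.73 ± 0.43), the matrix proteoglycan LUM (5.16 ± 0.37), the phospholipid-binding annexin ANXA1 (4.74 ± 0.33) and the guidance receptor homologue PRTG (4.44 ± 0.38). They were followed by WLS (4.39 ± 0.42), which carries WNT proteins to the cell surface, the semaphorin SEMA3C (4.13 ± 0.15), the matrix protein tenascin C encoded by TNC (4.04 ± 0.15), the arrestin ARRDC3 (3.95 ± 0.14) and the coagulation inhibitor TFPI (3.90 ± 0.15). The homeodomain factor MEIS2 (3.82 ± 0.18) and the scavenger receptor COLEC12 (3.70 ± 0.17) complete the 15 together with FGA, AFP and APOA1, described below. All 15 lay above untreated primed H7 in every t2iGo library, and 14 passed with the trend removed, TFPI having no length or GC value. The same t2iGo libraries chose these genes, so neither view is separate support. Genes were tested at a mean of at least 1 RPKM over the 6 H1 libraries. COL3A1, LUM, SEMA3C, MEIS2, COLEC12, FGA, AFP and APOA1 had a mean under 1 RPKM in primed H1. They passed that filter only through t2iGo and had to be higher there, so their calls support no direction.

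The largest fall was that of SNURF. It was listed at 0 in all 3 t2iGo libraries, against 241, 123 and 156 RPKM in primed H1 and 30.4 in primed H7. SNURF overlaps SNRPN, which stood at 382, 368 and 315 RPKM in primed H1 and 158, 103 and 77.7 in t2iGo, so how reads were divided between them is uncertain. MFGE8, a secreted milk fat globule protein, went from 536, 404 and 342 RPKM in primed H1 to 9.64, 8.07 and 5.86 RPKM in t2iGo, with 135 in primed H7. The 2 groups were far apart, and the difference was -5.59 ± 0.12 log2 units (SE, n = 3 pairs; limma, adjusted p = 4.08e-06). Other large falls were in the chemoattractant RARRES2 (-5.70 ± 0.20), the orphan receptor GPR176 (-5.25 ± 0.18), the lipid phosphatase PPAP2C (-5.23 ± 0.30), the cartilage glycoprotein LECT1 (-5.08 ± 0.22) and the imprinted gene NNAT (-5.08 ± 0.28). The secreted WFDC2 (-4.67 ± 0.23), the cytokine MIF (-4.61 ± 0.26), the troponin TNNT1 (-4.28 ± 0.18), TCEAL2 (-4.28 ± 0.15) and the neuroendocrine chaperone SCG5 (-4.28 ± 0.18) followed, with TCF7L1, ZFP42 and EGR1 described below. MIF varied widely within primed H1, at 235.6, 84 and 53.2 RPKM, against 4.39, 4.41 and 1.55 in t2iGo and 33.4 in primed H7. All 15 passed in all 3 views, NNAT narrowly. It stood at 88, 63 and 36.4 RPKM in primed H1, 0.397, 1.12 and 0.855 in t2iGo and 1.68 in primed H7. Its fall is thus large against primed H1 only. The same t2iGo libraries chose these 15 genes, so the 3 views are no separate support. SNURF, RARRES2, GPR176, PPAP2C, LECT1, NNAT, WFDC2, TCEAL2, SCG5 and EGR1 had a mean under 1 RPKM in t2iGo. They passed the filter only through primed H1 and had to be lower in t2iGo, so their calls support no direction.

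The markers of the naive state did not accompany the t2iGo label. Of 10 naive markers, all 10 reached at least 1 scaled RPKM in each 5iLA H7 shRNA library and at most 2 did so in any t2iGo H1 library. Their summed level was 3.78 to 5.14 scaled RPKM in t2iGo H1, 2.37 to 3.36 in primed H1, 3.83 in untreated primed H7 and 1398 to 1972 in 5iLA H7. The untreated 5iLA library was lower than the latter, at 321 with 8 of the 10 at 1 RPKM or more. KLF17, a factor that marks naive human cells, was at 0, 0.0434 and 0 RPKM in t2iGo H1 and at 1.16, 1.51 and 2.59 in 5iLA H7, with 0.0353 in untreated 5iLA H7. DPPA5, an RNA-binding protein of early embryos, was at 0.186, 0 and 0 RPKM in t2iGo H1 and at 433, 339.9 and 412 in 5iLA H7, with 59.7 in untreated 5iLA H7. DPPA3, another early embryo gene, stood at 1.04, 0.452 and 0.523 RPKM in t2iGo, DNMT3L, a cofactor of DNA methylation, at 0.876, 0.607 and 1.02, and TFCP2L1, a naive-state factor, at 0.301, 0.280 and 0.345. Primed H1 held less still, with DPPA3 at 0, 0.277 and 0.191, DNMT3L at 0.103, 0 and 0 and TFCP2L1 at 0.142, 0.138 and 0.204 RPKM, and 5iLA H7 held 413, 375 and 329, 153, 169.5 and 207 and 13, 15.6 and 20.6 RPKM. Of a list of 27 naive genes, 4 passed the filter of a mean of 1 RPKM over the 6 libraries. Of these the factor KLF5 rose by 1.15 ± 0.24 and the NODAL-related ligand GDF3 by 1.34 ± 0.48 (SE, n = 3 pairs; limma, adjusted p = 0.00392 and 0.0395). KLF5 stood at 0.518, 0.439 and 0.526 RPKM in primed H1, 1.28, 2.14 and 4.08 in t2iGo and 45.7, 48.4 and 60.2 in 5iLA H7. It passed the filter only through t2iGo and had to be higher there, so its call supports no direction. The call of GDF3 was lost without the control pair (0.48) and without the uCCNE1 pair (1.56), with limma adjusted p of 0.0923 and 0.0750. It was also lost without scaling (0.55), with no filter on low values (1.34) and with non-coding entries included (1.31), with limma adjusted p of 0.329, 0.102 and 0.0599. KLF4 did not pass, at -0.22 ± 0.20 (limma, adjusted p = 0.343), with 0.900, 0.836 and 0.927 RPKM in t2iGo against 32.2, 30.5 and 38.6 in 5iLA H7. The t2iGo H1 cells are therefore called by their medium, and not naive, in what follows.

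Markers of the primed state fell in part. The 10 primed markers summed to 1211 to 1495 scaled RPKM in primed H1, 490.0 to 541 in t2iGo H1, 1357 in untreated primed H7 and 92.0 to 159 in 5iLA H7, with 397 in untreated 5iLA H7. Of primed genes (24, all tested,), 5 were higher and 16 lower, beside 33.5% and 38.1% of all genes tested, with a median of -1.21 log2 units beside -0.05 over all genes tested. With the trend removed the list gave 6 higher and 12 lower of 24, median -0.52, and in all 3 views 2 higher and 12 lower. TCF7L1, a repressor of WNT target genes, went from 49.9, 48.7 and 34.1 RPKM in primed H1 to 1.42, 1.12 and 0.699 in t2iGo (-4.44 ± 0.12; SE, n = 3 pairs; limma, adjusted p = 1.09e-05). Primed H7 held 7.17 RPKM, between both groups. The WNT antagonist SFRP2 went from 134, 119 and 173 to 23.3, 18.5 and 13.9 RPKM and the homeodomain factor OTX2 from 61, 48.9 and 25.7 to 10.9, 8.28 and 9.21 RPKM. SFRP2 (-2.88 ± 0.21), OTX2 (-2.06 ± 0.21), the surface antigen THY1 (-2.98 ± 0.22) and the neuroligin NLGN4X (-2.29 ± 0.16) all fell (limma, adjusted p = 5.08e-05, 1.67e-04, 5.34e-05 and 4.40e-05), with no overlap between t2iGo and either primed group. ZIC2, a zinc finger factor of the primed state, was at 66.9, 55.2 and 64.6 RPKM in primed H1 and 29.7, 25.8 and 23.6 in t2iGo (-1.21 ± 0.13; limma, adjusted p = 1.71e-04). The DNA methyltransferase DNMT3B was at 152, 233 and 111 RPKM in primed H1 and 77.9, 60.8 and 43 in t2iGo (-1.41 ± 0.19; limma, adjusted p = 4.80e-04). Neither ZIC2 nor DNMT3B passed with the GC and length trend removed, at -0.24 and -0.49 (limma, adjusted p = 0.153 and 0.0617).

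Core pluripotency genes were present in t2iGo H1 and several were lower. Of these genes (19 tested of 20 listed), 3 were higher and 11 lower, with a median of -0.58. POU5F1, which encodes OCT4, stood at 199, 262 and 242 RPKM in primed H1 and at 46.7, 24.3 and 19.9 in t2iGo, below the 66.9 of untreated primed H7 and the 134, 96.4 and 108 of 5iLA H7. Its difference was -3.0 ± 0.27 (SE, n = 3 pairs; limma, adjusted p = 1.02e-04), and -1.98 with the trend removed. POU5F1 has near-identical pseudogenes, so part of its value is uncertain. SOX2, its partner factor, was at 109.7, 80.03 and 70.6 RPKM in primed H1 and 56.8, 58.9 and 65.1 in t2iGo (-0.50 ± 0.17; limma, adjusted p = 0.0326) and did not pass with the trend removed (-0.36; limma, adjusted p = 0.124), nor without the control pair (-0.28; 0.162) or the uCCNE1 pair (-0.53; 0.0914). ZFP42 (also called REX1) went from 37, 61.9 and 32.1 to 1.11, 0.623 and 1.3 RPKM, and untreated primed H7 held 2.11. The Polycomb subunit PHC1 (-3.46 ± 0.16), the telomere protein TERF1 (-2.38 ± 0.21), the factor ZSCAN10 (-2.61 ± 0.16) and the NODAL co-receptor TDGF1 (-1.83 ± 0.24) also fell (limma, adjusted p = 2.50e-05, 9.44e-05, 3.33e-05 and 4.39e-04). NANOG was at 13.6, 19 and 35.9 RPKM in primed H1 and at 30.9, 11 and 6.27 in t2iGo. Its difference was 1.13 in the control pair, -0.74 in the uCCNE1 pair and -2.34 in the pCCNE1 pair, the widest spread among genes of at least 10 RPKM whose pairs disagree in sign, and its mean of -0.65 ± 0.55 did not pass (limma, adjusted p = 0.312). Without the control pair it was -1.55 (limma, adjusted p = 0.00117), and without the pCCNE1 pair 0.22 (limma, adjusted p = 0.591).

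**Figure D2:**
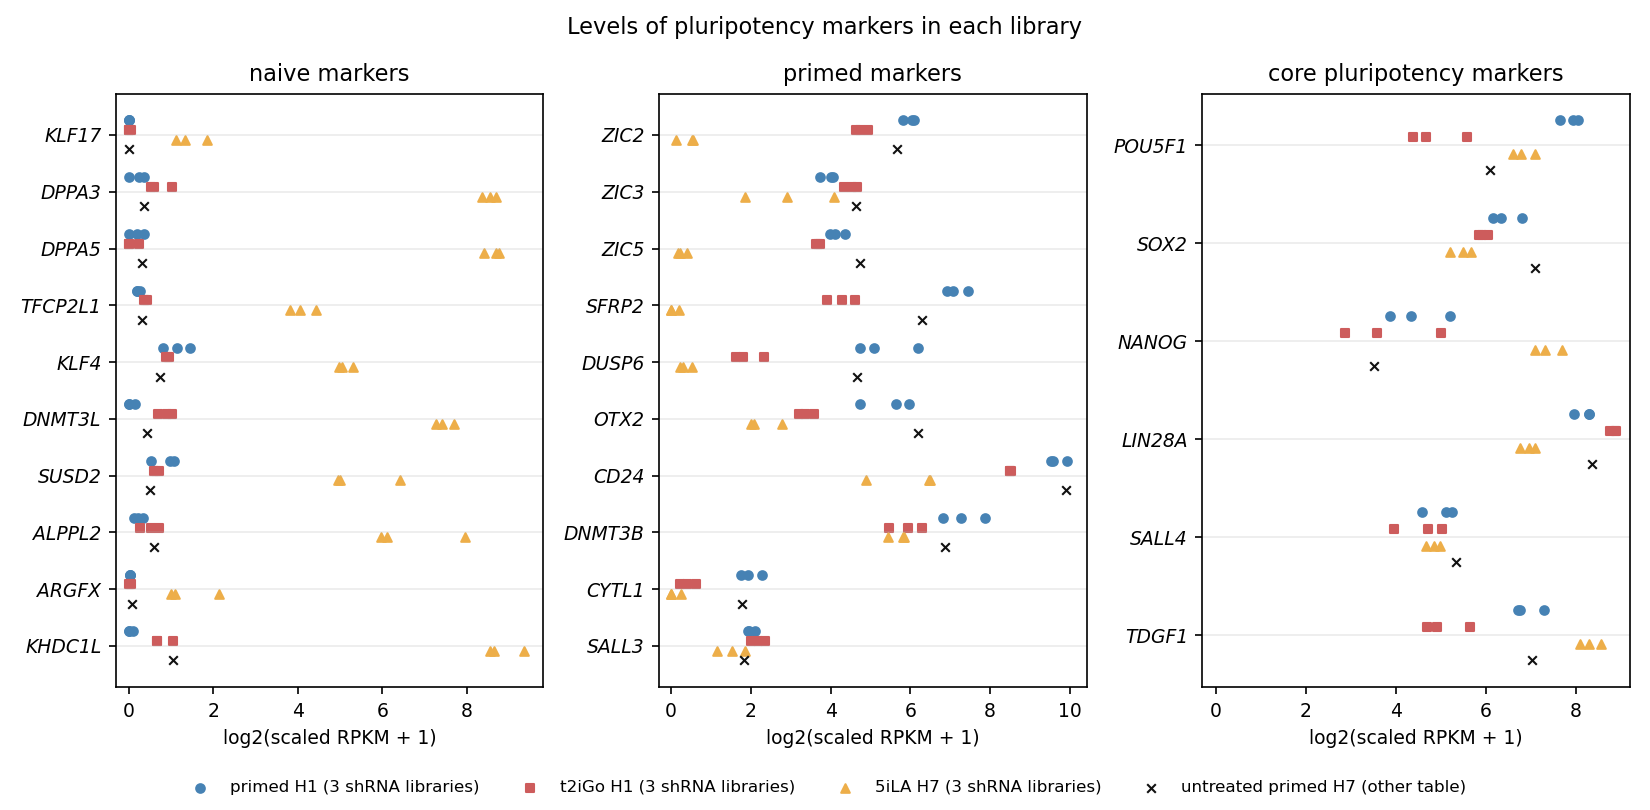
Level of each naive, primed and core pluripotency marker (y axis) as log2(scaled RPKM + 1) (x axis) in the 3 primed H1, 3 t2iGo H1 and 3 5iLA H7 shRNA libraries and in untreated primed H7, 1 point per library. The t2iGo points of the naive markers sit with the primed points near 0, apart from those of 5iLA H7, while those of SFRP2, DUSP6, OTX2 and POU5F1 lie below both primed groups.

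Immediate early genes and feedback inhibitors that ERK signalling induces were lower in t2iGo. Of such genes (17 tested of 21 listed), 1 was higher and 12 lower, with a median of -1.31, and the list gave 1 higher and 8 lower in all 3 views. EGR1, an early response factor, stood at 55.5, 15.3 and 20.6 RPKM in primed H1, 0.479, 0.303 and 0.0718 in t2iGo and 2.19 in untreated primed H7. DUSP6, the phosphatase that inactivates ERK, stood at 25.7, 32.9 and 71.5 RPKM in primed H1, 4.05, 2.5 and 2.1 in t2iGo and 24.2 in primed H7. Both genes were lower in each t2iGo library than in each primed library of either line. EGR1 differed by -4.41 ± 0.28 and DUSP6 by -3.41 ± 0.35 (SE, n = 3 pairs; limma, adjusted p = 3.67e-05 and 1.65e-04). The ETS factor ETV4 (-2.57 ± 0.26), the early genes IER2 (-2.33 ± 0.14) and FOS (-2.27 ± 0.18) and the receptor signalling inhibitor SPRY4 (-2.02 ± 0.35) fell as well (limma, adjusted p = 1.44e-04, 3.33e-05, 6.52e-05 and 0.00162). FOS was lower in untreated primed H7 (0.762 RPKM) than in every t2iGo library (8.28, 1.68 and 2.49), so its direction depends on which primed library is taken. IER2 stood at 4.51, 3.09 and 2.53 RPKM in t2iGo, with the 4.48 RPKM of primed H7 inside that range. CCND1, cyclin D1, was the only gene of the list called higher in the main fit. It went from 16.2, 10.3 and 13 to 52.3, 58.2 and 44.7 RPKM (1.91 ± 0.17; limma, adjusted p = 9.59e-05). With the trend removed the list gave 3 higher and 11 lower of 17, median -1.26.

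Serum response factor, which ERK signalling activates together with ternary complex factors, binds the CArG box. The stretch of 250 bases before the start of EGR1 (RefSeq, GRCh38.p14, chr5:138465229-138465478, plus strand) is shown because this gene had the largest fall of the list. Its 2 CArG boxes, which begin 105 and 83 bases before the start, are in capitals.
EGR1: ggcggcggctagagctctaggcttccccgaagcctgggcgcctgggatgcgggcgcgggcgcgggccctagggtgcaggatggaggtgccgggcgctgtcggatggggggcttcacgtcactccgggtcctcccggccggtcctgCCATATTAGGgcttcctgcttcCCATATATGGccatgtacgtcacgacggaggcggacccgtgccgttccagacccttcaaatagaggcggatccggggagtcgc
On either strand, 1.14% of 27305 promoters of this length hold a CArG box and 0.033% hold at least 2. Of the 17 genes tested 11 had a promoter in the table, and EGR1 alone among them held the motif.

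Several FGF receptors and ligands and PKC isoforms were lower as well. Of FGF genes (11 tested of 14 listed), 1 was higher and 6 lower, among them the receptors FGFR4 (-2.59 ± 0.14), FGFR1 (-1.26 ± 0.13) and FGFRL1 (-1.09 ± 0.16) and the ligands FGF11 (-1.58 ± 0.22) and FGF2 (-0.81 ± 0.20) (limma, adjusted p = 2.83e-05, 1.48e-04, 8.14e-04, 6.01e-04 and 0.00841). FGFBP3, a carrier of FGF proteins, was at 127, 70.8 and 141 RPKM in primed H1 and at 23.8, 29.8 and 31.1 in t2iGo (-1.91 ± 0.22; limma, adjusted p = 2.49e-04). With the trend removed the list gave 3 higher and 5 lower of 11, median -0.14, and FGFRL1 did not pass (0.13; limma, adjusted p = 0.509). Of PKC isoforms (8 tested of 9 listed), 0 were higher and 6 lower, with a median of -1.35. All 8 reached a mean of 1 RPKM in primed H1 and 5 did in t2iGo, so the others passed the filter only through primed H1 and the count by itself supports no direction. PRKCB, a conventional isoform, went from 4.45, 4.96 and 3.9 RPKM to 0.258, 0.270 and 0.337, against 5.16 in primed H7 and 0.254, 0.315 and 0.227 in 5iLA H7. It was under 1 RPKM in t2iGo and in the 5iLA shRNA libraries, 1.28 in untreated 5iLA H7 and at several RPKM in all primed libraries, and differed by -2.07 ± 0.16 (SE, n = 3 pairs; limma, adjusted p = 6.52e-05). The isoforms PRKCD (-1.62 ± 0.17), PRKCZ (-1.36 ± 0.15), PRKCH (-1.35 ± 0.21) and PRKCQ (-0.59 ± 0.18) fell too (limma, adjusted p = 1.73e-04, 1.99e-04, 0.00111 and 0.0217). PRKCQ did not pass without the uCCNE1 pair (-0.42) or without the pCCNE1 pair (-0.53), with limma adjusted p of 0.130 and 0.0556.

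WNT target genes rose. Of these genes (12 tested of 19 listed), 11 were higher and 0 lower, with a median of 1.60 beside -0.05 over all genes, and 11 were higher in all 3 views. Primed H1 alone reached a mean of 1 RPKM for 6 of the 12, and the others passed the filter only through t2iGo, so the count by itself supports no direction. LEF1, a nuclear partner of β-catenin, stood at 1.41, 0.628 and 0.847 RPKM in primed H1, 11.4, 9.43 and 11.4 in t2iGo, 0.701 in primed H7, 0.222, 0.644 and 0.535 in 5iLA H7 and 7.43 in untreated 5iLA H7. DKK1, a secreted WNT antagonist, stood at 0.495, 0.355 and 0.269 RPKM in primed H1, 9.43, 6.87 and 9.84 in t2iGo and 1.0 in primed H7. SP5, a zinc finger factor, stood at 0.852, 0.173 and 0.387 RPKM in primed H1 and 7.47, 5.15 and 2.8 in t2iGo, and was listed at 0 in primed H7. For all these genes the t2iGo libraries lay above every primed library. The differences were 2.81 ± 0.17 for DKK1, 2.60 ± 0.15 for LEF1 and 2.01 ± 0.21 for SP5 (SE, n = 3 pairs; limma, adjusted p = 3.33e-05, 3.17e-05 and 1.84e-04). Cyclin D2, encoded by CCND2 (2.60 ± 0.17), the TNF receptor family member TNFRSF19 (2.06 ± 0.30) and the ubiquitin ligase RNF43 (1.67 ± 0.19), which removes WNT receptors, rose too (limma, adjusted p = 3.82e-05, 7.15e-04 and 2.59e-04). AXIN2, a general WNT feedback gene named here after its values were seen, stood at 4.82, 5.01 and 4.76 RPKM in primed H1 and 13.8, 13.8 and 11.9 in t2iGo (1.27 ± 0.13; limma, adjusted p = 1.38e-04).

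The core of the sites bound by TCF and LEF factors was searched as CTTTGA on either strand in the 250 bases before gene starts (RefSeq, GRCh38.p14). It was found in 11.4% of 27305 promoters and at least 2 times in 1.02%. Of the 12 WNT targets tested 8 had a promoter in the table, and SP5 and DKK1 held the motif, 3 and 2 times. Both are shown for that reason, with the motif in capitals: SP5 (chr2:170715087-170715336, plus strand) and DKK1 (chr10:52314031-52314280, plus strand).
SP5: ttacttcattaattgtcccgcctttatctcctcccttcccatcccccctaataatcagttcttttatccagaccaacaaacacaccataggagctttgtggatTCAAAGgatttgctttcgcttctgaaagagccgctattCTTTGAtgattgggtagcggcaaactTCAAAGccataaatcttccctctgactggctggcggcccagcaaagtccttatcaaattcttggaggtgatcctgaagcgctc
DKK1: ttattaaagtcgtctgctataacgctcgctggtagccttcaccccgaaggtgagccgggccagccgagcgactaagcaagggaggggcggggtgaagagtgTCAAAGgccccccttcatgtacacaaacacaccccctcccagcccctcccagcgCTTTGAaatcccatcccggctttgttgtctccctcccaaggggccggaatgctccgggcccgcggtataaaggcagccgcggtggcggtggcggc
The matches begin 147, 109 and 83 bases before the start of SP5 and 149 and 95 bases before that of DKK1. A match is a description of these letters and no evidence of binding.

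Components of the WNT pathway moved in both directions. Of these (23 tested of 24 listed), 11 were higher and 10 lower, with a median of 0.11 (-0.71 without scaling). The ligand WNT5A rose from 0.775, 0.377 and 0.876 to 10.7, 14 and 21 RPKM (3.24 ± 0.19; SE, n = 3 pairs; limma, adjusted p = 3.33e-05). WNT5A passed the filter only through t2iGo and had to be higher there, so its call supports no direction. The secreted antagonist SFRP1 fell from 213, 186 and 196 to 29.8, 35.6 and 38.2 RPKM (-2.49 ± 0.14; limma, adjusted p = 3.11e-05). With TCF7L1 and SFRP2 above, these are the 4 largest differences of the list.

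Genes of the NODAL and activin pathway were mostly higher in t2iGo. Of these genes (16 tested of 19 listed), 11 were higher and 3 lower, with a median of 1.17, and 7 higher and 2 lower in all 3 views. NODAL stood at 1.06, 1.1 and 1.02 RPKM in primed H1, 25.6, 14.2 and 7.89 in t2iGo, 0.974 in primed H7 and 49, 79.4 and 63 in 5iLA H7. NODAL was above every primed library in all 3 t2iGo libraries, with a difference of 2.89 ± 0.27 (SE, n = 3 pairs; limma, adjusted p = 1.14e-04). The secreted antagonist CER1 rose from 1.78, 3.17 and 1.6 to 40.6, 8.05 and 4.75 RPKM (2.05 ± 0.51; limma, adjusted p = 0.00839), most in the control pair. The receptor ACVR2A (1.67 ± 0.15) rose (limma, adjusted p = 1.06e-04), though at 8.12, 9.37 and 11.9 RPKM its t2iGo levels reach down to the 8.14 RPKM of primed H7. The ligand subunit INHBE (-2.54 ± 0.26) and the co-receptor TDGF1 (-1.83 ± 0.24) fell (limma, adjusted p = 1.55e-04 and 4.39e-04).

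In the BMP pathway (16 tested of 20 listed), 10 were higher and 3 lower, beside 33.5% and 38.1% of all genes. With the trend removed the counts were 6 higher and 2 lower of 15, median 0.25, beside 26.1% and 25.2%. FST, follistatin, which binds activins and BMPs, went from 14.6, 6.08 and 10.6 to 93.9, 102 and 97 RPKM (3.18 ± 0.22; SE, n = 3 pairs; limma, adjusted p = 4.61e-05). The ligands BMP4 (2.06 ± 0.17), BMP7 (1.45 ± 0.26) and BMP2 (1.43 ± 0.15) and the decoy receptor BAMBI (1.97 ± 0.18) rose (limma, adjusted p = 7.20e-05, 0.00207, 1.64e-04 and 9.80e-05). ID3, a target gene of BMP signalling, fell from 64, 49.3 and 30.4 to 20.4, 12.8 and 8.54 RPKM (-1.73 ± 0.12; limma, adjusted p = 4.58e-05), while primed H7 held 8.76 RPKM, inside the t2iGo range.

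The receptor chain for LIF was higher in t2iGo. IL6ST, the shared receptor gp130, stood at 1.12, 0.767 and 1.56 RPKM in primed H1, 13.5, 14.8 and 30.1 in t2iGo, 3.23 in primed H7 and 29.5, 20.3 and 37.7 in 5iLA H7. The t2iGo levels were above those of every primed library, with a difference of 3.18 ± 0.18 (SE, n = 3 pairs; limma, adjusted p = 3.17e-05). The LIF receptor LIFR (1.80 ± 0.16), the kinase JAK1 (1.40 ± 0.13) and the feedback inhibitor SOCS2 (1.29 ± 0.17) rose (limma, adjusted p = 9.63e-05, 1.08e-04 and 4.31e-04), and the kinase PIM3 (-1.22 ± 0.23) fell (limma, adjusted p = 0.00251). Of the genes of this pathway (12 tested of 16 listed), 6 were higher and 3 lower, with a median of 0.35 (-0.44 without scaling), and with the trend removed 8 higher and 0 lower of 12, median 0.87, PIM3 then at 0.25 (limma, adjusted p = 0.365).

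**Figure D3:**
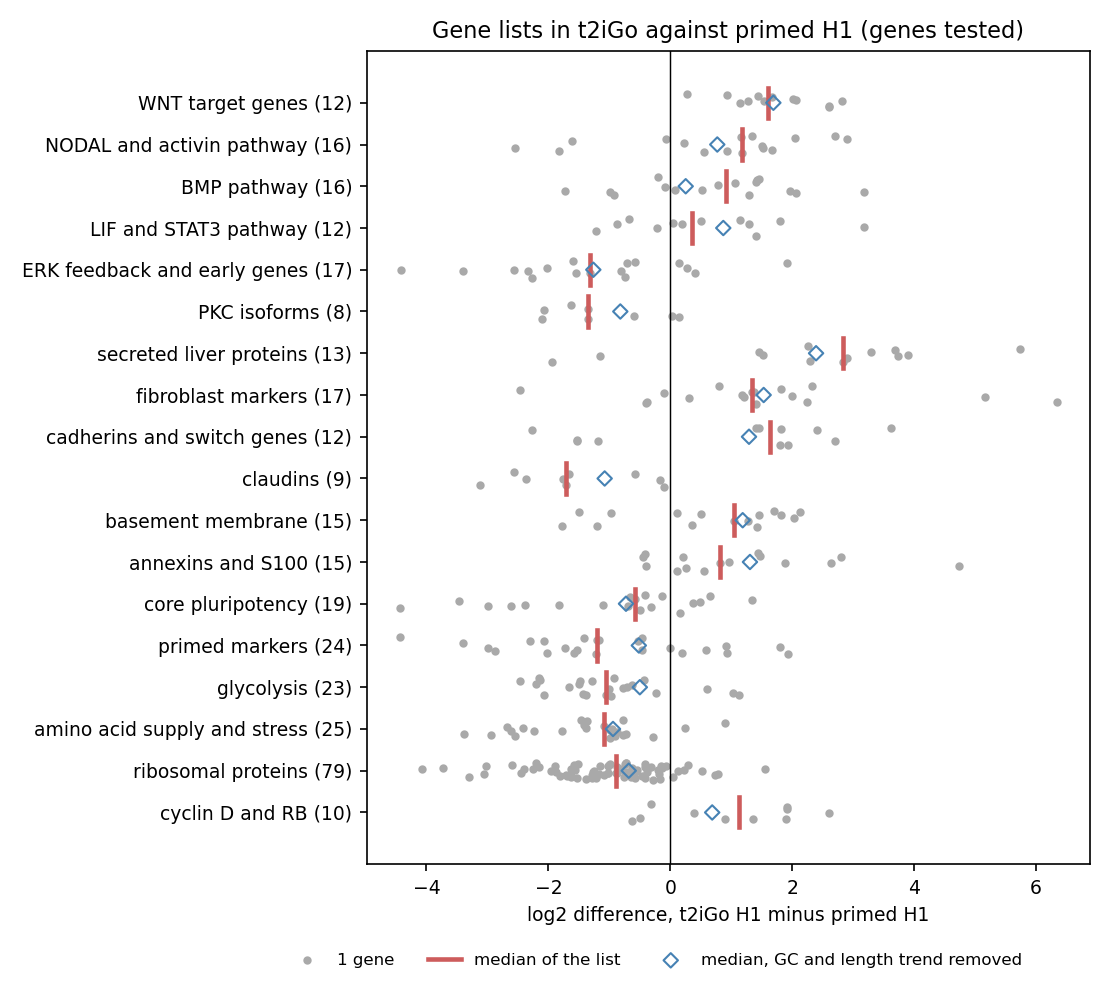
Log2 difference, t2iGo H1 minus primed H1 (x axis), of every tested gene (grey points) in 18 gene lists (y axis, number tested in brackets), with the list's median in the main fit (red line) and with the GC and length trend removed (open diamond). NODAL and activin genes lie mostly to the right with a median of 1.17, and ERK feedback genes and claudins to the left with medians of -1.31 and -1.71.

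Several genes of endoderm and of the fetal liver were higher in t2iGo. Of genes of secreted liver proteins (13 tested of 21 listed), 11 were higher and 2 lower. Primed H1 alone reached a mean of 1 RPKM for 4 of those tested, and the others passed the filter only through t2iGo and had to be higher there, so the count supports no direction. AFP, alpha-fetoprotein, stood at 0.264, 0.843 and 0.133 RPKM in primed H1 and 6.36, 24.9 and 31.6 in t2iGo, APOA2 at 2.08, 0.687 and 0.464 in primed H1 and 54.8, 140.3 and 143 in t2iGo, and TTR, transthyretin, at 0.0471, 0.0453 and 0 in primed H1 and 2.5, 8.14 and 13.3 in t2iGo. Untreated primed H7 held 0.125, 0 and 0 RPKM of these genes. Each t2iGo library was above each primed library, and in these 3 genes the control library was the lowest of the 3 t2iGo libraries. AFP differed by 3.73 ± 0.38, the fibrinogen chain FGA by 3.89 ± 0.28, the apolipoprotein APOA1 by 3.68 ± 0.26, TTR by 2.90 ± 0.36 and the trypsin inhibitor SPINK1 by 3.30 ± 0.45 (SE, n = 3 pairs; limma, adjusted p = 1.52e-04, 4.83e-05, 4.75e-05, 3.55e-04 and 5.43e-04). The 7 endoderm markers summed to 34.8 to 70.3 scaled RPKM in t2iGo H1, 0.659 to 2.67 in primed H1, 0.267 in untreated primed H7 and 0.888 to 1.61 in 5iLA H7. All 7 reached 1 RPKM in each t2iGo library. Of endoderm regulators (7 tested of 17 listed), 4 were higher and 1 lower, and here too primed H1 alone reached a mean of 1 RPKM for 3 only, so the count supports no direction. The factors GATA6 (1.52 ± 0.19), EOMES (1.51 ± 0.30), PRDM1 (1.48 ± 0.18) and the antagonist CER1 rose and the factor FOXA3 (-2.03 ± 0.16) fell (limma, adjusted p = 3.48e-04, 0.00309, 3.22e-04 and 5.85e-05). In bulk RNA, a few cells with much of such an RNA and many cells with little of it cannot be told apart.

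Among mesoderm regulators (7 tested of 20 listed), 4 were higher and 1 lower, and with the trend removed 4 higher and 0 lower of 6, median 1.53. Primed H1 alone reached a mean of 1 RPKM for 2 of those tested, so this count supports no direction either. HAND1, a factor of lateral mesoderm and trophoblast, stood at 0.0225, 0 and 0 RPKM in primed H1, 4.72, 3.95 and 7.64 in t2iGo and 0.787, 3.77 and 5.74 in 5iLA H7 (2.63 ± 0.20; limma, adjusted p = 5.91e-05). The zinc finger factor SNAI2 (2.40 ± 0.16) and the receptor PDGFRA (2.31 ± 0.19) rose and SNAI1 (-1.53 ± 0.23) fell (limma, adjusted p = 4.30e-05, 7.14e-05 and 8.75e-04), and SNAI1 did not pass with the trend removed (-0.51; limma, adjusted p = 0.0887). Of neural genes (14 tested of 22 listed), 4 were higher and 4 lower, shares under the 33.5% and 38.1% of all genes. CRABP1, which binds retinoic acid, rose from 202, 143 and 215 to 773, 614 and 455 RPKM (1.70 ± 0.21; limma, adjusted p = 3.32e-04), the intermediate filament NES (1.48 ± 0.18) rose and the homeodomain factor HESX1 (-2.79 ± 0.35) fell (limma, adjusted p = 3.14e-04 and 3.51e-04). The 5 neural markers summed to 1.13 to 2.65 scaled RPKM in t2iGo H1 and 1.23 to 7.16 in primed H1, and HES5 was listed at 0 in all t2iGo libraries. The 6 trophoblast markers summed to 0.955 to 3.38 scaled RPKM in t2iGo H1, 3.43 to 7.69 in primed H1, 3.34 in untreated primed H7 and 66.9 to 123 in 5iLA H7.

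E-cadherin and claudins fell, and N-cadherin and fibronectin rose. Among cadherins and genes that change with them between epithelial and mesenchymal cells (12 tested of 14 listed), 8 were higher and 4 lower, beside 33.5% and 38.1% of all genes. CDH1, E-cadherin, stood at 63.3, 71.2 and 46.3 RPKM in primed H1, 10.9, 12.9 and 11 in t2iGo, 63.9 in primed H7 and 149, 147 and 142 in 5iLA H7. CDH2, N-cadherin, stood at 24.2, 15.2 and 24.9 RPKM in primed H1, 81.2, 80.05 and 87.5 in t2iGo, 31.9 in primed H7 and 0.418, 3.31 and 10.7 in 5iLA H7. In each t2iGo library CDH1 was below and CDH2 above every primed library of both lines, and the 5iLA shRNA libraries lay on the other side for both genes. Untreated 5iLA H7 held 129.96 RPKM of CDH1 and 23.2 of CDH2, the latter inside the primed range. CDH1 differed by -2.27 ± 0.14 and CDH2 by 1.93 ± 0.15 (SE, n = 3 pairs; limma, adjusted p = 3.33e-05 and 6.52e-05). Fibronectin, encoded by FN1, went from 16.4, 15 and 16.3 to 178, 195 and 256 RPKM (3.62 ± 0.14; limma, adjusted p = 1.39e-05), and CDH11 (2.70 ± 0.19) and CDH6 (1.82 ± 0.23) rose too (limma, adjusted p = 4.58e-05 and 3.59e-04). The epithelial adhesion protein EPCAM, named after its values were seen, was at 41.2, 69.1 and 43.7 RPKM in primed H1 and 17.7, 23.5 and 23.2 in t2iGo (-1.19 ± 0.15; limma, adjusted p = 3.67e-04). Of claudins (9 tested of 14 listed), which seal tight junctions, 0 were higher and 7 lower, with a median of -1.71. All 9 reached a mean of 1 RPKM in primed H1 and 5 did in t2iGo, so the count by itself supports no direction. CLDN7 went from 21.2, 22.7 and 11.8 to 1.07, 1.35 and 1.07 RPKM and CLDN10 from 5.49, 5.37 and 4.97 to 0.0813, 0.120 and 0, at -3.13 ± 0.19 and -2.56 ± 0.16 (limma, adjusted p = 3.33e-05 and 3.43e-05). CLDN4 (-2.36 ± 0.26), CLDN6 (-1.76 ± 0.13), CLDN3 (-1.71 ± 0.32) and CLDN11 (-1.65 ± 0.30) fell as well (limma, adjusted p = 2.29e-04, 4.73e-05, 0.00224 and 0.00216), and CLDN3 did not pass with the trend removed (-0.06; limma, adjusted p = 0.826).

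Several matrix genes rose, while COL1A2 fell. Of fibroblast markers (17 tested of 19 listed), 12 were higher and 2 lower, and primed H1 alone reached a mean of 1 RPKM for 10 of those tested. The others passed the filter only through t2iGo, so the count supports no direction. LUM, lumican, stood at 0.181, 0.298 and 0.325 RPKM in primed H1, 18.8, 43.7 and 104 in t2iGo and 0.899 in primed H7. COL1A2, a chain of type I collagen, went the other way, at 21.4, 17.3 and 18.6 RPKM in primed H1, 1.91, 2.76 and 3.38 in t2iGo and 19.6 in primed H7 (-2.46 ± 0.18; SE, n = 3 pairs; limma, adjusted p = 4.95e-05). The other chain, COL1A1, was at 14.9, 6.72 and 3.88 RPKM in primed H1 and 5.0, 6.39 and 9.83 in t2iGo, lower in the control pair and higher in the pCCNE1 pair, and did not pass (-0.11 ± 0.41; limma, adjusted p = 0.828). COL3A1 and COL1A2, often high together in fibroblasts, thus stood at opposite ends of the list. The matrix genes COL6A3 (2.33 ± 0.18), FBN1 (2.24 ± 0.16) and COL5A1 (2.0 ± 0.27) rose (limma, adjusted p = 5.51e-05, 4.58e-05 and 4.71e-04). The 7 fibroblast markers summed to 94.5 to 329 scaled RPKM in t2iGo H1, 26.0 to 39.2 in primed H1 and 28.0 in untreated primed H7, with the lowest t2iGo sum in the control library and the highest in the pCCNE1 library. Whether feeder cells were present is not stated in the labels, and the part of other cell types in these values was not tested. Of basement membrane genes (15 tested of 18 listed), 9 were higher and 4 lower, beside 33.5% and 38.1% of all genes. Rises were found in NID2 (2.12 ± 0.41), LAMC1 (2.03 ± 0.12), SPARC (1.82 ± 0.19) and LAMA2 (1.70 ± 0.16) (limma, adjusted p = 0.00276, 3.17e-05, 1.86e-04 and 1.08e-04). LAMA5 (-1.78 ± 0.34) and COL18A1 (-1.49 ± 0.18) fell (limma, adjusted p = 0.00267 and 3.19e-04), and COL18A1 did not pass with the trend removed (-0.19; limma, adjusted p = 0.254). Of annexin and S100 genes (15, all tested), 9 were higher and 2 lower, beside 33.5% and 38.1% of all genes, with a median of 0.82 (-0.23 without scaling). ANXA1 went from 1.09, 1.84 and 1.26 to 28, 68.7 and 124 RPKM and ANXA2 from 9.65, 16.2 and 14.3 to 69.4, 91.6 and 104 RPKM, against 0.288 and 9.45 in primed H7. ANXA2 differed by 2.64 ± 0.13 and S100A10, its binding partner, by 1.89 ± 0.22 (limma, adjusted p = 2.50e-05 and 2.54e-04).

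**Figure D4:**
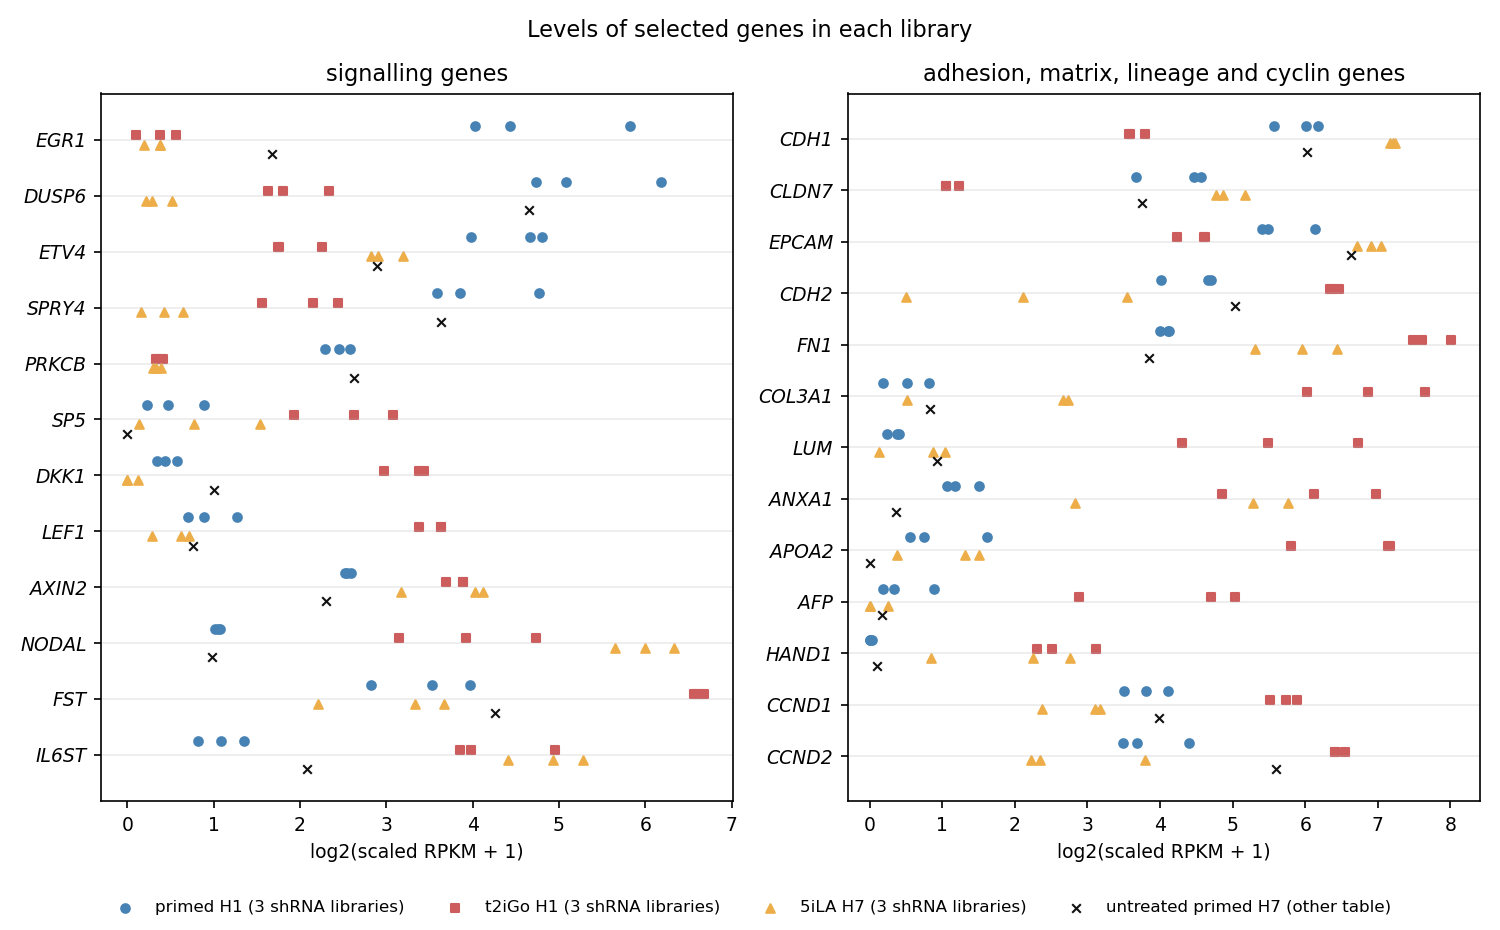
Level of 25 genes named in the text (y axis) as log2(scaled RPKM + 1) (x axis) in the 3 primed H1, 3 t2iGo H1 and 3 5iLA H7 shRNA libraries and in untreated primed H7, 1 point per library. The t2iGo points of EGR1, PRKCB, CDH1 and CLDN7 lie to the left of all primed points, and those of LEF1, NODAL, FN1, COL3A1 and APOA2 to the right.

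Glycolytic genes were lower in t2iGo. Of these (23 tested of 24 listed), 3 were higher and 19 lower, with a median of -1.06, and with the trend removed 1 higher and 15 lower of 23, median -0.50. In all 3 views 1 was higher and 8 lower. LDHA, lactate dehydrogenase A, stood at 173, 184 and 282 RPKM in primed H1, 43.9, 48.5 and 41.3 in t2iGo, 73.4 in primed H7 and 77.6, 101 and 99.2 in 5iLA H7. HK2, hexokinase 2, stood at 18.7, 17.9 and 21 RPKM in primed H1, 3.6, 3.78 and 3.97 in t2iGo and 8.94 in primed H7. Both were lowest in t2iGo, with differences of -2.20 ± 0.18 and -2.07 ± 0.12 (SE, n = 3 pairs; limma, adjusted p = 7.73e-05 and 3.33e-05). ALDOA (-2.47 ± 0.15), ENO2 (-2.16 ± 0.16) and ALDOC (-2.14 ± 0.29) fell (limma, adjusted p = 3.49e-05, 5.10e-05 and 4.86e-04). GAPDH was at 1759, 1948 and 1567 RPKM in primed H1 and 762, 543 and 403 in t2iGo (-1.67 ± 0.19; limma, adjusted p = 2.24e-04), with the 754 of primed H7 inside the range of t2iGo. Many of these genes have processed pseudogenes, and their values are uncertain to that extent.

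Genes of serine and amino acid supply, many of them targets of the stress factor ATF4, were mostly lower in t2iGo. Of these (25 tested of 27 listed), 1 was higher and 22 lower, with a median of -1.08. With the trend removed 1 was higher and 15 lower of 24, median -0.94, and 14 were lower in all 3 views. All 25 reached a mean of 1 RPKM in primed H1 and 23 did in t2iGo. PHGDH, the first enzyme of serine synthesis, stood at 248, 225 and 195 RPKM in primed H1, 50.1, 31.7 and 27.4 in t2iGo and 79.8 in primed H7. PCK2, the mitochondrial phosphoenolpyruvate carboxykinase, stood at 61.1, 31.4 and 22.6 RPKM in primed H1, 6.81, 3.45 and 2.06 in t2iGo and 24.2 in primed H7. The groups did not overlap, and the differences were -2.62 ± 0.14 and -2.93 ± 0.12 (SE, n = 3 pairs; limma, adjusted p = 3.02e-05 and 1.68e-05). CHAC1, which degrades glutathione, the cystathionine synthase CBS (-2.67 ± 0.14), the TORC1 inhibitor DDIT4 (-2.55 ± 0.30) and the cationic amino acid carrier SLC7A3 (-2.41 ± 0.16) fell too, CHAC1 with a difference of -3.39 ± 0.28 (limma, adjusted p = 7.03e-05, 2.83e-05, 2.75e-04 and 3.73e-05). ASNS, asparagine synthetase, named here for its promoter, was at 111, 95.5 and 79.9 RPKM in primed H1 and 40.7, 31.3 and 33.7 in t2iGo (-1.41 ± 0.13; limma, adjusted p = 9.57e-05).

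The core of the site that ATF4 and C/EBP factors share was searched as TGATGNAA on either strand in the same 250 bases. It was found in 3.19% of 27305 promoters and in 2 of the 19 members with a promoter in the table. These are shown with the match in capitals, in ASNS (chr7:97872409-97872658, minus strand) from 68 and in CHAC1 (chr15:40953221-40953470, plus strand) from 209 bases before the start.
ASNS: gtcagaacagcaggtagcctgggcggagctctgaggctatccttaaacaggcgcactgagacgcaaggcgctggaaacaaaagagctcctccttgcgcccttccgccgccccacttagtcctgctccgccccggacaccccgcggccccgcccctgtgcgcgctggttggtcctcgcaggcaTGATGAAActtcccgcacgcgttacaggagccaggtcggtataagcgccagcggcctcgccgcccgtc
CHAC1: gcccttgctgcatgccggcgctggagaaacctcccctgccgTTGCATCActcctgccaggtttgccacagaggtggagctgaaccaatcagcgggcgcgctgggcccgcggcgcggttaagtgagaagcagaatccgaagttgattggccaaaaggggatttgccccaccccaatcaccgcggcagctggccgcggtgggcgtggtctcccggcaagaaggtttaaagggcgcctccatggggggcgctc
The other 17 promoters held no match in this window.

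Ribosomal protein genes were lower and zinc finger genes higher in t2iGo. Of cytosolic ribosomal protein genes (79 tested of 81 listed), 3 were higher and 62 lower, with a median of -0.88, and 44 were lower in all 3 views. RPL28 went from 399.9, 267 and 261 to 38.1, 25.7 and 27.2 RPKM, with 73.3 in primed H7 (-3.30 ± 0.12; SE, n = 3 pairs; limma, adjusted p = 1.25e-05). The larger falls of RPLP1 (-4.07 ± 0.37) and RPS16 (-3.73 ± 0.20) (limma, adjusted p = 9.92e-05 and 2.83e-05) and the others of this family are uncertain, since nearly all have processed pseudogenes. Of genes of ribosome production and MYC (23 tested of 24 listed), 5 were higher and 12 lower, and with the trend removed 1 higher and 8 lower of 23, median 0.07. FBL, the ribosomal RNA methylase fibrillarin, and MYC, which drives ribosome production, were at -2.60 ± 0.15 and -1.78 ± 0.20 (limma, adjusted p = 3.07e-05 and 2.24e-04). MYC stood at 5.79, 3.4 and 2.64 RPKM in t2iGo, with the 4.13 RPKM of primed H7 inside that range. Of 386 tested genes with ZNF names, 250 were higher and 62 lower, beside 33.5% and 38.1% of all genes, with a median of 0.72 (-0.035 without scaling). With the trend removed 184 were higher and 40 lower of 362, median 0.46, beside 26.1% and 25.2% of all genes. In all 3 views 120 were higher and 17 lower, beside 15.2% and 15.3%. A mean of 1 RPKM was reached by 343 of the 386 in primed H1 and by 368 in t2iGo, and the others passed the filter only through the other culture. Their median GC content was 43.8%. ZNF460 went from 0.618, 0.491 and 0.664 to 18.4, 18.5 and 20.4 RPKM and ZNF808 from 2.04, 1.23 and 2.03 to 22.4, 22 and 20.2, by 3.66 ± 0.13 and 3.04 ± 0.15 (limma, adjusted p = 1.25e-05 and 2.68e-05). ZNF460 passed the filter only through t2iGo and had to be higher there, so its call supports no direction. Primed H7 held 18.1 RPKM of ZNF460, close to the t2iGo libraries, and 7.78 of ZNF808.

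Imprinted genes and DNA methylation genes gave mixed results. IGF2, a growth factor expressed from the paternal copy, rose from 1.05, 0.416 and 0.775 to 12.8, 19 and 33.9 RPKM (3.62 ± 0.27; SE, n = 3 pairs; limma, adjusted p = 5.54e-05), with 1.21 in primed H7. PEG3 fell from 5.65, 4.55 and 3.99 to 0.0372, 0.0206 and 0.0333 RPKM (-2.47 ± 0.17; limma, adjusted p = 4.57e-05), with 0.0141 RPKM in primed H7 and 10.8, 14.5 and 6.82 in 5iLA H7. IGF2 passed the filter only through t2iGo and PEG3 only through primed H1, so neither call supports a direction. Of imprinted genes (16 tested of 21 listed), 4 were higher and 9 lower, beside 33.5% and 38.1% of all genes, and with the trend removed 3 higher and 6 lower of 14, median 0.07. Of genes of DNA methylation (11 tested of 13 listed), 2 were higher and 6 lower, but with the trend removed 2 higher and 0 lower of 9, median 0.03. TRIM28, a corepressor, was lower (-1.69 ± 0.15; limma, adjusted p = 8.75e-05) and did not pass with the trend removed (-0.38; limma, adjusted p = 0.111).

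A few well-expressed genes had differences that disagreed in sign between the pairs. After NANOG, the widest ranges were those of TXNIP, which binds thioredoxin (0.49, 2.25 and -0.00 in the control, uCCNE1 and pCCNE1 pairs), the galectin LGALS1 (-0.28, 1.92 and 0.62) and the antiviral membrane protein BST2 (-0.62, 1.30 and -0.46). In primed H1 these were lowest in the uCCNE1 library, with TXNIP at 25.4, 5.84 and 40.7, LGALS1 at 19.3, 2.32 and 16.7 and BST2 at 44, 7.8 and 27.3 RPKM, and the t2iGo libraries lay closer together, at 36, 31.4 and 40.6, 15.7, 11.5 and 26.2 and 28.4, 20.6 and 19.7 RPKM. None passed (limma, adjusted p = 0.0647, 0.0968 and 0.854). Single pairs decided this, since TXNIP was at 1.39 without the pCCNE1 pair and 1.11 without the control pair, LGALS1 at 1.26 without the control pair and BST2 at -0.54 without the uCCNE1 pair (limma, adjusted p = 0.00344, 0.0256, 0.00214 and 0.0242).

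The gene that the shRNAs target did not differ past the threshold between the cultures. CCNE1 stood at 8.66, 5.03 and 7.4 scaled RPKM in primed H1, 13, 7.18 and 7.68 in t2iGo, 9.46 in primed H7 and 22.5, 11.5 and 17.7 in 5iLA H7. The primed and t2iGo levels overlapped, and the difference of 0.34 ± 0.15 did not pass (SE, n = 3 pairs; limma, adjusted p = 0.0691). The t2iGo levels inside the primed range were those with the uCCNE1 and pCCNE1 shRNAs, which target this gene. The control pair, 1 library a side, stood at 8.66 and 13 RPKM, so the test mixes culture with the effect of these shRNAs. The difference passed with the trend removed (0.73; limma, adjusted p = 0.00409) and without the pCCNE1 pair (0.51; limma, adjusted p = 0.0195), and turned to -0.48 without scaling (limma, adjusted p = 0.0282). CCNE2, the other cyclin E gene, rose from 1.19, 1.7 and 1.02 to 4.22, 4.5 and 7.15 RPKM (1.43 ± 0.21; limma, adjusted p = 7.96e-04). Of genes around cyclin E and CDK2 (12 tested of 13 listed), 7 were higher and 1 lower, with a median of 0.63 (-0.17 without scaling). FBXW7, which marks cyclin E for degradation, was at 5.82, 5.85 and 5.74 RPKM in primed H1 and 24.2, 25.9 and 32 in t2iGo (2.05 ± 0.13; limma, adjusted p = 3.91e-05), and the 27 RPKM of primed H7 lay within the t2iGo range. Of genes of cyclin D and RB (10 tested of 12 listed), 6 were higher and 2 lower. CDK6, the kinase partner of cyclin D, rose from 3.26, 2.45 and 3.88 to 11.3, 12.8 and 21.2 RPKM (1.91 ± 0.16; limma, adjusted p = 8.02e-05). CDKN2A rose from 0.0361, 0.0349 and 0.0281 to 2.65, 2.92 and 2.97 RPKM (1.90 ± 0.17; limma, adjusted p = 9.60e-05). CDKN2A passed the filter only through t2iGo and had to be higher there, and it had no length or GC value.

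Genes of chromosome 1 stood apart from those of all other chromosomes, a pattern noticed in the values and not planned. With the GC and length trend removed, 53.3% of chromosome 1 genes were called higher and 10.6% lower, where 26.1% and 25.2% of all genes were. The median difference of 1136 chromosome 1 genes was 0.49 in the control pair, 0.46 in the uCCNE1 pair and 0.42 in the pCCNE1 pair. The medians of the other 22 chromosomes lay between -0.12 and 0.07 in these pairs. Against untreated primed H7 the chromosome 1 median of t2iGo H1 was 0.48, and against 5iLA H7 it was 0.41, while primed H1 against untreated primed H7 gave 0.01. The chromosome 1 median was thus above that of every other chromosome when t2iGo H1 was set against either primed group or against 5iLA H7, and inside the range of the others, -0.10 to 0.07, when the primed groups were set against each other. The shift ran along the whole chromosome. Over 1055 of these genes with a position in the annotation, all 26 blocks of 40 to 41 genes in gene order had a median above 0, from 0.17 to 0.65, and the median was 0.44 over 592 genes of the short arm and 0.51 over 463 genes of the long arm. Of 228 blocks on the other chromosomes 5 had a median above 0.25, against 23 of the 26 on chromosome 1. The arms were told apart by the longest stretch without coding genes. The number of copies of chromosome 1 in these cells was not measured, and the cause of the shift was not tested. Of the tested genes named above, APOA2, WLS, S100A10, JAK1, LAMC1 and NES, which were higher, ID3, PHGDH and PRKCZ, which were lower, and TXNIP, which did not pass, are on chromosome 1.

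**Figure D5:**
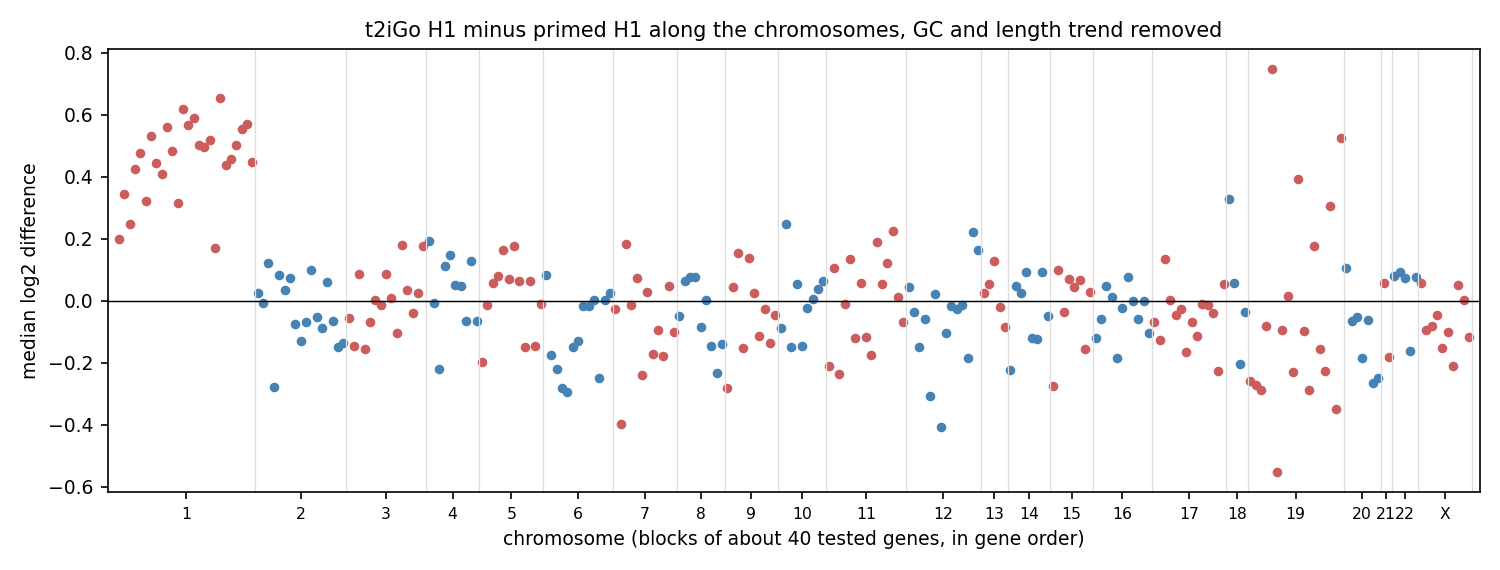
Median log2 difference, t2iGo H1 minus primed H1 with the GC and length trend removed (y axis), in 254 blocks of about 40 tested genes in gene order along chromosomes 1 to 22 and X (x axis, colours alternate by chromosome). All 26 blocks of chromosome 1 lie above 0, between 0.17 and 0.65, and 96 of the 228 others do.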

How the data were processed

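RNA sequencing libraries of human embryonic stem cells were analysed from 2 deposited tables of RPKM values, which the authors made from their reads. The submitters' processing notes name TopHat2, Cufflinks and the hg19 build without giving their roles, and state neither read filters nor strand. The H1 and 5iLA H7 shRNA libraries share 1 table, and the untreated H7 libraries are in another, which was normalised separately. Low depth limits the precision of low values.

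Entries with NM accessions other than histone genes were scaled by median ratios, kept at a mean of at least 1 RPKM over the 6 H1 libraries, and transformed as log2(RPKM + 1). Such fold changes understate the change of low genes. A gene with a mean under 1 RPKM in 1 culture passed the filter only through the other. The call of such a gene supports no direction, whether or not this is said beside it. The test was limma 3.58.1 in R 4.3.3 with culture and shRNA as terms, 2 residual degrees of freedom, a variance trend with intensity, and Benjamini-Hochberg adjustment over all 11213 genes at 0.05. The labels tie the libraries to shRNAs. After culture means were removed, libraries of the same shRNA had deviations with r of 0.287 (control), 0.136 (uCCNE1) and 0.303 (pCCNE1), each the best match, so the shRNA was kept as a block. The fit was tested on simulated data.

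For the GC and length trend, natural splines with 5 degrees of freedom in GC content and in log2 length (GENCODE 29 transcripts, GRCh38) were removed from each library. Promoter sequences came from RefSeq (GRCh38.p14). Other libraries were scaled to the same reference for their levels.

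The members and gene lists were chosen with earlier results of these data known. Named are the 15 genes that rose most and the 15 that fell most with 1 sign over all pairs, up to 6 called members with the largest difference of each list described, the 10 widest disagreements between pairs (not all described), and a set of state markers and cyclin E genes always named. The removal of the GC and length trend, the comparison with untreated primed H7 and the grouping by chromosome were chosen after seeing the data. Alternatives covered scaling, pseudocount, filter, entries tested, block, libraries in the fit, moderation and leaving out each pair. A few genes that this rule names are not reported here.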

Additional observations from a re-analysis of the deposited data

Results flagged for a closer look

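A signal appeared in entries outside the tests. Histone entries held at least 0.902% of summed RPKM in every t2iGo H1 library and at most 0.0208% in any primed H1 library. Entries without an NM accession, mostly non-coding RNAs, held at least 16.8% of summed RPKM in every t2iGo H1 library and at most 4.70% in any primed H1 library. Both kinds were left out of the scaling and the tests, and their part in the other differences was not tested. The sample descriptions name the primed H1 libraries in another format than the t2iGo H1 libraries, and culture and that difference in naming cannot be told apart here either.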

How the results depend on the processing

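The counts of 3755 higher and 4273 lower genes kept within 1.5 times under quantile normalization, a pseudocount of 0.1, no filter on low values, inclusion of non-coding and histone entries, moderation without a trend and a fit of all 9 shRNA libraries. They moved to 1019 higher and 7696 lower without scaling, where 435 calls reversed, and to 2484 lower genes among the 7076 with a mean of at least 5 RPKM, where fewer genes were tested. With the GC and length trend removed, an alternative added after seeing the data, 2836 genes were higher and 2745 lower, 4078 calls were shared with the main analysis and 275 reversed. Leaving out 1 shRNA pair gave 3203 to 3514 higher and 3839 to 3973 lower genes. The fit with no replicate block, without the shRNA pairing, gave 3597 higher and 4098 lower, and changed the call of none of the 157 named genes tested.

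Among named genes, removing the GC and length trend turned FGFRL1 to 0.13, KLF4 to 0.34 and PIM3 to 0.25, and the medians of the DNA methylation list to 0.03, of the imprinted genes to 0.075 and of the ribosome production list to 0.067. Of 149 named genes with a value, 136 kept their direction and call under it, 7 lost the call, 3 gained it and 3 turned direction. No scaling turned CCNE1 to -0.48 and the list medians of annexins and S100 genes to -0.23, cyclin E and CDK2 to -0.17, LIF and STAT3 to -0.44, WNT components to -0.71 and ZNF genes to -0.035. It also turned BST2 to -0.81 and LGALS1 to -0.099, neither of which passed with scaling. Quantile normalization turned KLF4, which did not pass in the main analysis, to 0.23. NANOG ranged from -1.55 without the control pair to 0.22 without the pCCNE1 pair, BST2 from -0.54 without the uCCNE1 pair to 0.41 without the control pair, and COL1A1 from -0.71 without the pCCNE1 pair to 0.54 without the control pair. The cause of these shifts was not tested. Estimated depth was lowest in the t2iGo library with the pCCNE1 shRNA, so values near 0 are least precise there.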
